A study of Mus musculus with 6 samples.

Results

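The nuclear genes of oxidative phosphorylation were taken as all probe sets with exactly 1 gene symbol beginning Nduf, Uqcr or Atp5, or Cox followed by 4, 5, 6, 7 or 8, or equal to Sdha, Sdhb, Sdhc or Sdhd. The rule used symbols and no measured value. It found 90 genes on 179 probe sets, of 18193 genes and 45101 probe sets on the array. Of these, 88 genes had a probe set above the filter on low signal and were tested, while Cox7b2 and Ndufb4 had none. The muscle isoforms Cox6a2, Cox7a1 and Cox8b, 3 subunits of cytochrome c oxidase, were set apart, which left 85 genes. Of these 85, 75 encode subunits of the 5 complexes, 8 encode assembly factors of complex I (Ndufaf1 to Ndufaf8), and Cox7a2l and Ndufa4l2 stand outside both classes. Subunits under other symbols and those encoded in mitochondrial DNA are not among them.

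RNA was measured on 6 Affymetrix mouse expression arrays, 2 each of mandible, calvaria and ulna from untreated male adult mice of 24 to 26 grams, a strain the methods give as Black CD57. The mandible was taken with its teeth, the calvaria without sutures, and the ulna without soft tissue and epiphyses, and all were ground whole as bone organs. The methods name 10 mice in 2 groups, but not how many gave RNA to 1 array, and the p-values therefore reflect no more than the variation among the 6 arrays, part or all of which may be technical. The values are MAS5 signals, a brightness on a linear scale that the authors had scaled to a common trimmed mean on each array. The array medians lay between 30.6 and 33.6, and signals are printed as deposited. Differences are log2 differences after each array was divided by its median. A gene passed at an adjusted p under 0.05 in limma over all 25233 tested probe sets, and was called where it also differed 2-fold or more. Signals of different probe sets were not compared. The study asked how bones of the skull and limb differ in gene expression, and the mandible was set against both other sites.

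Oxidative phosphorylation passes electrons from NADH (complex I) and succinate (complex II) through complex III to oxygen at complex IV, and complex V uses the proton gradient so formed to make ATP. Most subunits are encoded in the nucleus, and their genes are expressed in almost all cells, at high levels in striated muscle. Complex IV has subunits with tissue-specific isoforms, and Cox6a2, Cox7a1 and Cox8b are those of heart and skeletal muscle, in place of Cox6a1, Cox7a2 and Cox8a. Bone organs hold bone cells, marrow and whatever muscle stays attached.

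The promoters of Cox8b and Cox8a are shown because this isoform pair differed most between the sites. Each sequence runs from 250 bases before to 50 bases after the gene's start, on the minus strand of the RefSeq assembly GRCm38.p6, at chr7:140900397-140900696 for Cox8b and chr19:7217567-7217866 for Cox8a. Capitals mark CAGCTG and TATAAA in Cox8b, and CCGGAAG, read on the other strand, in Cox8a.
Cox8b: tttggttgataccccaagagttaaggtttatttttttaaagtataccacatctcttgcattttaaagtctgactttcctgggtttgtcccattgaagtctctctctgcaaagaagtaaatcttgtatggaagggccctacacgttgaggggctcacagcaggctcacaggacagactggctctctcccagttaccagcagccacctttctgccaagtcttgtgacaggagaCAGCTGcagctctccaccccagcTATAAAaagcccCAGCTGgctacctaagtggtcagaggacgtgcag
Cox8a: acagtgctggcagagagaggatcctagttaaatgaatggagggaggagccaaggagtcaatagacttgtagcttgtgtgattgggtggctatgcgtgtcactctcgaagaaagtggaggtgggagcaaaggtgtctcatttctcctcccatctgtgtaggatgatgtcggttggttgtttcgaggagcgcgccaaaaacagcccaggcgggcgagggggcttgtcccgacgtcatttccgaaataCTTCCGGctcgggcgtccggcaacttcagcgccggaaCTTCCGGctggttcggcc
CAGCTG is an E-box of the kind bound by factors of the MyoD family, TATAAA is the core of the TATA box, and CCGGAAG is an ETS-type motif of the kind bound by GABPA. Cox8b held CAGCTG 2 times and TATAAA once, with 2 CG pairs in its 300 bases. Cox8a held CCGGAAG 2 times, neither of the motifs of Cox8b, and 19 CG pairs. On both strands, with overlapping matches allowed, 16.3% of all 32851 promoters in the table held CAGCTG, 13.6% TATAAA, and 8.86% CCGGAAG, while the motif of NRF1 was in 0.971%. Promoters were found for 74 member genes (79 entries), of which 7.59% held CAGCTG, 11.4% TATAAA, 24.1% CCGGAAG and 7.59% the NRF1 motif. The member promoters held a median of 20 CG pairs, between 2 and 43. The promoters of Cox7a1 and Cox7a2 held none of the 4 motifs, with 7 CG pairs in Cox7a1 and 20 in Cox7a2. These matches are a description of the letters, and binding was not measured.

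The 3 muscle isoforms were low in calvaria and high in mandible and ulna. Cox6a2 gave signals of 1282 and 1113 in mandible, 144.5 and 181.8 in calvaria, and 1652 and 1529 in ulna. Cox7a1 gave 801.2 and 759.6 in mandible, 80.05 and 91.59 in calvaria, and 842.4 and 913.9 in ulna. Cox8b gave 1476 and 1208 in mandible, 116 and 78.98 in calvaria, and 1129 and 1230 in ulna. For all 3, both calvaria arrays lay below the other 4 arrays. In calvaria the signal was 0.0967 times that of ulna for Cox6a2, 0.0926 times for Cox7a1 and 0.077 times for Cox8b, with adjusted p of 4.48e-09, 2.15e-09 and 3.12e-08 in limma. In mandible it was 7.16 times that of calvaria for Cox6a2, 8.86 times for Cox7a1 and 13.6 times for Cox8b (adjusted p of 4e-08, 9.38e-09 and 5.64e-08 in limma). Mandible and ulna lay closer together. Cox6a2 was lower in mandible by 0.53 on the log2 scale (log2 difference -0.53, adjusted p of 0.00355 in limma), whereas Cox7a1 (-0.29, adjusted p of 0.0505, and 0.034 without calvaria replicate 1) and Cox8b (0.06, adjusted p of 0.781) did not pass.

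The partner isoforms differed less between the sites. Cox6a1 gave 5564 and 5094 in mandible, 5672 and 5487 in calvaria, and 4772 and 4957 in ulna, and passed in no comparison by this probe set. A dimmer probe set of Cox6a1 passed higher in calvaria than ulna (0.40, adjusted p of 0.00369 in limma) and higher in mandible than ulna (0.55, adjusted p of 0.00027). Cox7a2 gave 5610 and 5425 in mandible, 4448 and 4577 in calvaria, and 5373 and 5662 in ulna, lower in calvaria than ulna by 0.37 on the log2 scale (log2 difference -0.37, adjusted p of 0.000722 in limma) and higher in mandible than calvaria (0.25, adjusted p of 0.0102). Its calvaria arrays were thus the lowest, as in the muscle isoforms, by a smaller amount. Cox8a gave 963.7 and 828.4 in mandible, 812.5 and 848.8 in calvaria, and 599.3 and 607.1 in ulna, so that its ulna arrays were the low ones. Its log2 difference was 0.38 between calvaria and ulna (adjusted p of 0.00749 in limma) and 0.45 between mandible and ulna (adjusted p of 0.00191). Within each array, the ratio of the muscle isoform to its partner was lower in calvaria than ulna by 11.2-fold for Cox6a2, 8.38-fold for Cox7a1 and 17-fold for Cox8b. The same ratios were higher in mandible than calvaria by 7.72-fold, 7.45-fold and 13-fold. In all 3 pairs both arrays of calvaria lay below both of each other site. The exact permutation p, two-sided, was 0.333 each time, the smallest that 2 arrays against 2 allow.

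**Figure D1:**
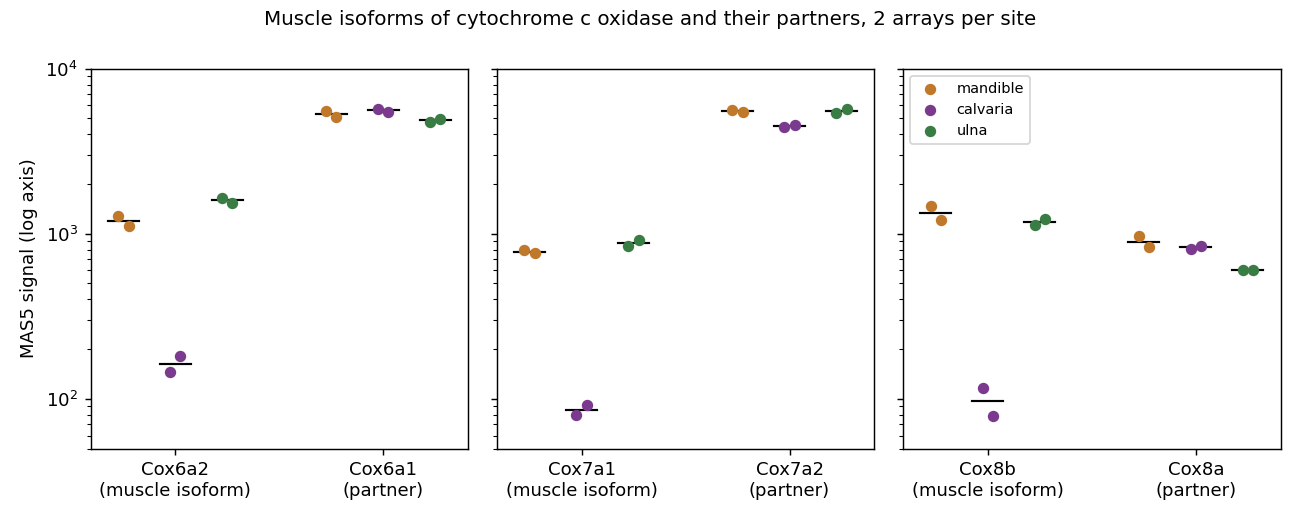
MAS5 signal (log axis) of the 3 muscle isoforms of cytochrome c oxidase and of their partner isoforms, with mandible, calvaria and ulna from left to right, 1 point for each array and a bar at the mean of the 2 arrays. The muscle isoforms lie between 78.98 and 181.8 in calvaria and at 759.6 or more elsewhere, while no partner differs between sites by as much.

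Skeletal muscle markers were also low in calvaria. Of 25 markers, 24 were lower in calvaria than ulna (median log2 difference -3.16), against 16.6% of all tested probe sets. All 24 differed 2-fold or more, against 4.95% lower. Between mandible and calvaria, 22 were higher (median 2.76), against 8.38%. Between mandible and ulna, 15 were lower and 1 was higher (median -0.51), against 26.6% and 16.8%. Their summed signal was 84150 to 86210 in mandible, 12360 to 12640 in calvaria and 96650 to 98690 in ulna, and no marker was listed at 0. The muscle actin Acta1 gave 1290 and 1218 in calvaria, against 8259 and 8478 in ulna. In bulk tissue, fewer cells of a type and less RNA per cell cannot be told apart. The part of muscle RNA in the differences of the other members was not tested.

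Apart from the muscle isoforms, members were mostly lower in calvaria than in ulna. Of the 85 genes, 56 were lower (65.9%), against 16.6% of all tested probe sets, and 3 were higher (3.53%), against 13%. The other 26 did not pass. At 2-fold or more, 0 members were lower, against 4.95% of all tested probe sets, and 1 was higher, against 6.9%. The median log2 difference was -0.39, a ratio of 0.763, with a range of -0.97 to 1.54. Over all tested probe sets the median was -0.08. Both arrays of calvaria lay below both of ulna in 63 members, against 38% of all tested probe sets, and above both in 8, against 27.5%. Without adjustment, 64 members had a p under 0.05 in limma, but the share of all tested probe sets was not counted. The arrays of a site lay close together for these genes, with a median standard deviation of 0.0795 on the log2 scale over the members and 0.194 over all tested probe sets. With variances not moderated along the trend with signal, 33 members were lower (38.8%) and 1 was higher (1.18%). In that fit, 10.6% of all tested probe sets were lower and 9.74% higher. With a filter at the 75th percentile, 58 of 79 members were lower (73.4%), against 29.2% of all tested probe sets. By the probe set with the lowest mean of each gene, 37 were lower, 4 of them 2-fold or more, and the median was -0.20.

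The core of complex I had the lowest median of the roles apart from the muscle isoforms. Of its 6 genes, 5 were lower in calvaria (median log2 difference -0.70). Ndufs1, the large iron-sulphur subunit, gave 358.5 and 383.5 in calvaria, against 683.4 and 660.5 in ulna (log2 difference -0.93 ± 0.087 (SE), adjusted p of 1.55e-05 in limma). Ndufs7, which holds an iron-sulphur cluster close to the quinone site, gave 726.3 and 730.3 in calvaria, against 1256 and 1263 in ulna (-0.87, adjusted p of 7.42e-06). In both genes the calvaria and ulna arrays were far apart compared with the 2 arrays of a site. Ndufv1, the subunit that binds NADH, gave 718.6 and 833.4 in calvaria, against 1370 and 974.7 in ulna, where the ulna arrays lay far apart. By its brightest probe set, the core gene that did not pass was Ndufs8, another iron-sulphur subunit, with 1461 and 1224 in calvaria against 1030 and 972 in ulna (0.34, adjusted p of 0.109). Its value depends on the probe set: the other 5 tested probe sets of Ndufs8 were negative, and 2 of them passed lower in calvaria (-0.34, adjusted p of 0.00889, and -0.48, adjusted p of 0.00529).

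Accessory subunits, which surround the core and do not carry electrons, were lower in calvaria in 22 of 27 genes (median -0.50), and 0 were higher. Among the probe sets that stood for the 85 genes, Ndufa5 had the lowest value, with 809.6 and 728.7 in calvaria against 1439 and 1412 in ulna (-0.97 ± 0.077 (SE), adjusted p of 4.22e-06 in limma). Ndufab1, the mitochondrial acyl carrier protein, gave 422.4 and 472.1 in calvaria, against 777.1 and 791.7 in ulna (-0.89, adjusted p of 2.77e-05). Without the probe sets whose suffix _s_at or _x_at marks a possible match to related transcripts, the value of Ndufab1 was 0.17 (adjusted p of 0.318). The 5 accessory genes that did not pass lay between -0.19 and 0.02, among them Ndufa7, with 1135 and 1201 in calvaria against 1044 and 1138 in ulna, whose arrays overlapped. The assembly factors, which help to build complex I and are not part of it, did not follow the subunits. Only Ndufaf4 of 8 was lower, with 156.4 and 179.9 in calvaria against 271.6 and 304.2 in ulna (-0.85, adjusted p of 0.00125), and the median of the 8 was 0.04. Their signals were lower and their errors larger (median SE of 0.161, against 0.0769 for the accessory subunits), and the difference between the groups of genes was not tested.

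Complex II, which is also the succinate dehydrogenase of the tricarboxylic acid cycle, had 3 of 4 genes lower in calvaria (median -0.48). Sdha, the flavoprotein, gave 920.2 and 944.9 in calvaria, against 1312 and 1342 in ulna (-0.59, adjusted p of 0.000105 in limma), and Sdhb, the iron-sulphur subunit, gave 1156 and 1235 in calvaria, against 1649 and 1656 in ulna (-0.54, adjusted p of 0.000746). The tested probe set of Sdha with the lowest mean was dim, at 85.16 and 61.51 in calvaria against 70.24 and 64.19 in ulna, and gave 0.03. Another probe set of Sdha gave -0.85 (adjusted p of 0.000294 in limma). In complex III, 6 of 8 genes were lower (median -0.56), while Uqcr10 and Uqcrh did not pass. Uqcrq, a small subunit, gave 463.1 and 517.3 in calvaria, against 907 and 767.9 in ulna (-0.85, adjusted p of 0.000222). Uqcrc2, a core protein, gave 1299 and 1182 in calvaria, against 2087 and 1877 in ulna (-0.75, adjusted p of 2.97e-05). By their brightest probe sets, no array of calvaria reached the ulna level in Sdha, Sdhb, Uqcrq or Uqcrc2.

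Complex IV was mixed. Of 13 genes, 6 were lower in calvaria, 2 were higher and 5 did not pass, with a median of -0.15. Cox5b gave 2837 and 2693 in calvaria, against 4065 and 4414 in ulna (-0.69, adjusted p of 1.63e-05 in limma). The dimmest tested probe set of Cox5b, at 41.91 and 48.08 in calvaria against 31.84 and 46.23 in ulna, gave 0.15 (adjusted p of 0.789). The remaining tested probe sets of Cox5b gave -0.35, -0.67 and -0.64, and all passed. Cox5a gave 3035 and 2665 in calvaria, against 3919 and 4176 in ulna (-0.59, adjusted p of 0.000192). The higher genes were Cox8a, given above, and Cox7c, whose tested probe set was dim, at 104.4 and 126.4 in calvaria against 80.05 and 63.93 in ulna (0.61, adjusted p of 0.0465). The call of Cox7c was lost without either calvaria array (adjusted p of 0.069 without replicate 1 and 0.251 without replicate 2), without ulna replicate 2 (0.217) and without mandible replicate 1 (0.0568) or replicate 2 (0.0579). The call of Cox8a was lost without calvaria replicate 2 (0.35, adjusted p of 0.0555). Cox4i2, an isoform induced by low oxygen, gave 34 and 22.71 in calvaria, against 3.253 and 25.09 in ulna (1.54, adjusted p of 0.197), the widest split between arrays of a site among the members. Its partner Cox4i1, expressed in most tissues, was lower in calvaria (-0.24, adjusted p of 0.0173).

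Complex V, the ATP synthase, had 13 of 17 genes lower in calvaria and 0 higher (median -0.43). Both large subunits of the catalytic head were among them. Atp5a1, the alpha subunit, gave 1347 and 1338 in calvaria, against 2060 and 2182 in ulna (-0.74 ± 0.071 (SE), adjusted p of 1.96e-05 in limma). Atp5b, the beta subunit with the catalytic sites, which the methods name as a reference gene for qRT-PCR, gave 2045 and 1875 in calvaria, against 2997 and 3044 in ulna (-0.70 ± 0.065, adjusted p of 1.56e-05). The other reference gene, Eif4a2, an initiation factor of translation, was higher in calvaria, with 1781 and 1612 against 1353 and 1363 in ulna (0.24, adjusted p of 0.0269). The methods chose both genes for varying least across the qRT-PCR samples. Those samples were bones and primary cell lines, and no mouse samples are named among them, so the values here may not apply to them. In mandible, Atp5b gave 3114 and 2981, higher than in calvaria (0.60, adjusted p of 8.81e-05), and Eif4a2 gave 2066 and 2144, higher than in calvaria (0.27, adjusted p of 0.0203) and ulna (0.51, adjusted p of 0.000188). The 4 genes of complex V that did not pass were Atp5g2, Atp5h, Atp5md and Atp5mpl, between -0.19 and 0.17.

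Outside the complexes, Ndufa4l2 was the 1 member called in this comparison apart from the muscle isoforms. It is a paralogue of Ndufa4 induced by hypoxia. It gave 97.6 and 112.6 in calvaria, against 37.23 and 38.62 in ulna (1.39 ± 0.21 (SE), adjusted p of 0.000593 in limma), so that the ulna signals were close to the array median. Cox7a2l, which takes part in joining complexes III and IV, did not pass (-0.06).

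**Figure D2:**
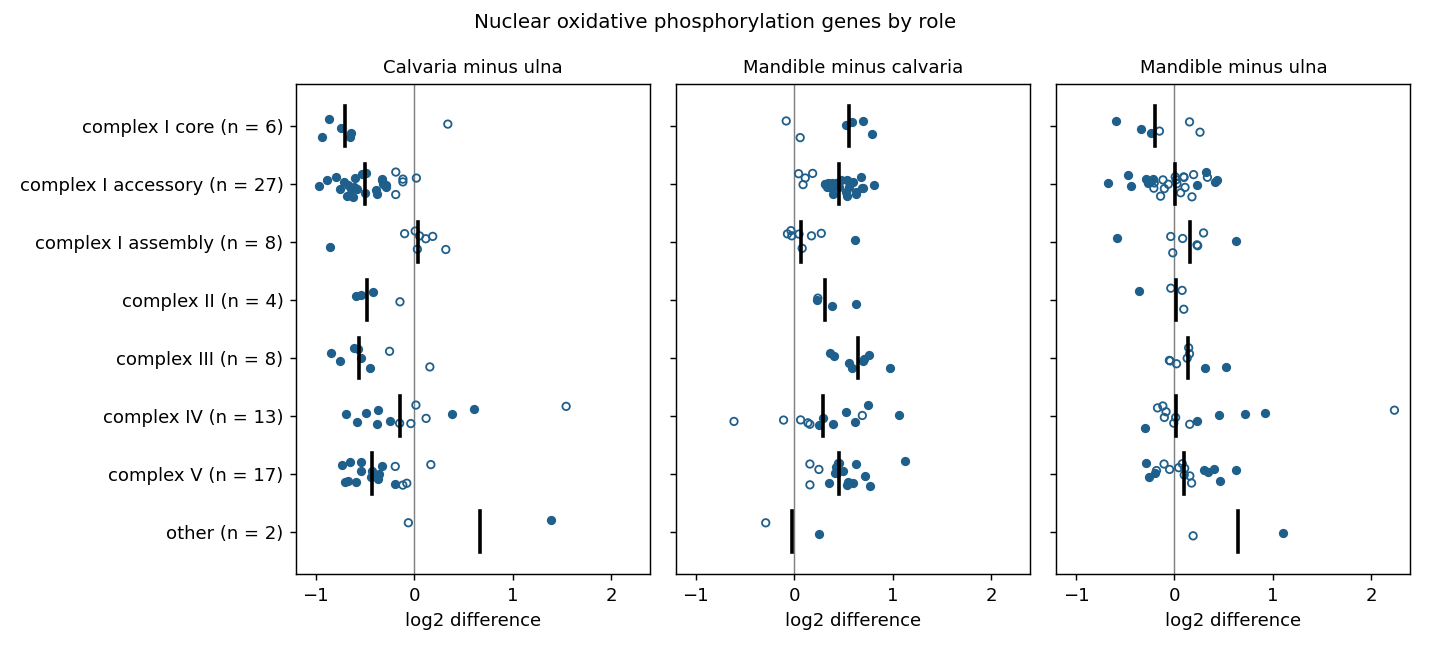
Log2 difference of each member gene except the muscle isoforms, by role, between calvaria and ulna, mandible and calvaria, and mandible and ulna. Filled points passed at an adjusted p under 0.05 in limma, open points did not, and black bars are medians. The medians of complex I core (-0.70) and accessory subunits (-0.50) lie left of 0 between calvaria and ulna, with 1 gene of each right of 0, and both medians lie right of 0 between mandible and calvaria.

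Between mandible and calvaria, members were mostly higher in mandible. Of 85 genes, 61 were higher (71.8%), against 8.38% of all tested probe sets, and 0 were lower, against 13.5%. The median log2 difference was 0.42, a ratio of 1.34, where all tested probe sets had a median of -0.09. Without adjustment 67 members had a p under 0.05 in limma, again without a count over all tested probe sets. At 2-fold or more, 2 members were higher, against 4.09% of all tested probe sets, and 0 were lower, against 3.48%. Both mandible arrays lay above both calvaria arrays in 71 members, against 24.6% of all tested probe sets, and below both in 3, against 36.7%. With variances not moderated along the trend, 26 were higher (30.6%), against 5.37% of all tested probe sets in that fit. Complex III passed throughout, with 8 of 8 genes higher in mandible (median 0.64). It was followed by the accessory subunits of complex I with 23 of 27, complex V with 14 of 17, complex II with 3 of 4, the core of complex I with 4 of 6 and complex IV with 7 of 13. Of the assembly factors, 1 of 8 was higher.

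The 2 called members were Atp5g1 and Ndufa4. Atp5g1, 1 of 3 genes for the ring subunit of ATP synthase, gave 1927 and 1585 in mandible, against 759.7 and 798.9 in calvaria (1.12 ± 0.090 (SE), adjusted p of 1.01e-05 in limma). The other genes for the same protein differed less: Atp5g2 had a log2 difference of 0.35 (adjusted p of 0.00506) and Atp5g3 of 0.43 (adjusted p of 0.00158). Ndufa4, named for complex I but a subunit of complex IV, gave 1952 and 1677 in mandible, against 778.3 and 907.5 in calvaria (1.07 ± 0.12, adjusted p of 0.000109). Ndufa4 is thus a gene in which mandible stood above both other sites, as ulna gave 789.2 and 987.9.

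Among the rest, Uqcrq gave 909.5 and 1080 in mandible, against 463.1 and 517.3 in calvaria (0.98, adjusted p of 0.000123 in limma), and Uqcr11 gave 934.6 and 887.8, against 501.3 and 546.5 in calvaria (0.76, adjusted p of 9.07e-05). Ndufa8 gave 1465 and 1320 in mandible, against 752.6 and 790.4 in calvaria (0.81, adjusted p of 4.07e-05), and Ndufs3 gave 870.7 on both arrays of mandible, against 487.1 and 489.8 in calvaria (0.79, adjusted p of 4.86e-05). These are small subunits of complex III and an accessory and a core subunit of complex I, and in each the 4 arrays split by site. Atp5o, in the stalk of ATP synthase, gave 2177 and 2378 in mandible, against 1293 and 1300 in calvaria (0.77, adjusted p of 3.9e-05). A dimmer probe set of Atp5o gave 0.085 (adjusted p of 0.737), with overlapping arrays. Ndufc1 (0.70), Ndufs1 (0.70), Sdhb (0.62) and Sdhc (0.38) also passed, Sdhc not without calvaria replicate 2 (adjusted p of 0.0807). Cox6b2, known as the isoform of testis, gave 402.5 and 383.7 in mandible, against 213.3 and 240.5 in calvaria (0.75, adjusted p of 0.000797). Cox7a2l passed at 0.25 (adjusted p of 0.0427), and Ndufaf1 at 0.62 (adjusted p of 0.021). The other tested probe sets of Cox7a2l gave 0.05 and 0.03 and did not pass. Cox7a2l did not pass without any 1 of the calvaria and mandible arrays (adjusted p of 0.0712 to 0.198). Ndufaf1 did not pass without calvaria replicate 2 (0.148), mandible replicate 1 (0.105) or mandible replicate 2 (0.0724).

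Between mandible and ulna, members went both ways. Of 85 genes, 17 were higher in mandible (20%), against 16.8% of all tested probe sets, and 16 were lower (18.8%), against 26.6%. In this fit the share higher lay near the background and the share lower lay below it. Arrays did not overlap in 32 members higher in mandible, against 28.6% of all tested probe sets, and in 27 lower, against 43.2%. At 2-fold or more, 1 member was higher, against 9.36% of all tested probe sets, and 0 were lower, against 11.3%. Without adjustment 43 had a p under 0.05 in limma, a count with no share of all tested probe sets to set beside it. The median was 0.06, and -0.13 over all tested probe sets. The split depended on scaling: with the values as deposited, 31 were higher (36.5%) and 7 lower (8.24%). In those values 20.2% of all tested probe sets were higher and 21.6% lower, with a median of -0.02. The split also depended on single arrays. Without ulna replicate 2, 7 were lower, and without mandible replicate 1, 9 were lower and the median was -0.0036.

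The higher genes included Ndufa4 (0.92, adjusted p of 0.000118 in limma) and Cox6b2, with 402.5 and 383.7 in mandible against 227.4 and 212.5 in ulna (0.72, adjusted p of 0.000461). Uqcrh, the hinge protein of complex III, gave 3343 and 3342 in mandible, against 2183 and 2105 in ulna (0.52, adjusted p of 4.6e-05), though its value was 0.21 (adjusted p of 0.0844) without probe sets marked _s_at or _x_at. Atp5md, a small subunit of ATP synthase, gave 1236 and 1412 in mandible, against 844.7 and 737.2 in ulna (0.63, adjusted p of 0.00332). Atp5g1 (0.47), Ndufa7 (0.42), Uqcr10 (0.31) and Ndufaf1 (0.63) passed as well. Without mandible replicate 1, Uqcr10 had an adjusted p of 0.134 and Ndufaf1 of 0.0565, and the call was also lost for Uqcr10 without ulna replicate 1 (0.149) and for Ndufaf1 without ulna replicate 2 (0.0719). Ndufa4l2 was called, with 89.39 and 87.08 in mandible against 37.23 and 38.62 in ulna (1.10, adjusted p of 0.00169). Cox4i2 gave 38.09 and 56 in mandible, against 3.253 and 25.09 in ulna, and did not pass (2.24, adjusted p of 0.0509).

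Of the 33 complex I subunits, 10 were lower in mandible than ulna, a share near the 26.6% of all tested probe sets. Among the accessory subunits 7 were lower and 4 higher (median 0.009). In the core 3 were lower and 0 higher (median -0.19). Of all tested probe sets, 16.8% were higher. Ndufb7 gave 1076 and 1062 in mandible, against 1518 and 1627 in ulna (-0.67, adjusted p of 3.66e-05 in limma), and Ndufb3 gave 1168 and 1108 in mandible, against 1473 and 1435 in ulna (-0.47, adjusted p of 0.000316). Both are accessory subunits in the membrane arm, and for both mandible and calvaria lay close together. A dimmer probe set of Ndufb7 gave -0.085 between mandible and ulna (adjusted p of 0.461 in limma). Ndufv1 (-0.59), Ndufs7 (-0.34), Ndufaf4 (-0.58), Sdha (-0.36), Cox5a (-0.29), Atp5a1 (-0.29) and Atp5l (-0.25) also passed. Without ulna replicate 2, Ndufaf4, Cox5a, Atp5a1 and Atp5l did not pass (adjusted p of 0.0615 to 0.0795). Without mandible replicate 1, Ndufaf4 (0.0717), Cox5a (0.0819) and Atp5l (0.0543) did not, and without mandible replicate 2 Atp5a1 (0.059) did not. With the values as deposited, Cox5a, Atp5a1 and Atp5l lost their calls, and by their probe sets of lowest mean Ndufs7 (0.06), Ndufaf4 (0.07) and Sdha (0.22) had the other sign. The value of Ndufv1 was -0.17 (adjusted p of 0.111) without probe sets marked _s_at or _x_at. Of 44 member genes with several tested probe sets, Ndufb11 and Ndufb2 had probe sets that passed in opposite directions here. For Ndufb11, the brightest probe set gave -0.27 and another gave -0.26, but the dimmest gave 0.61 (adjusted p of 0.000934). For Ndufb2, the brighter pair of probe sets gave 0.44 each, but a dim one gave -0.70 (adjusted p of 0.0437). The directions of these 2 genes therefore depend on the probe set. Counted by sign alone, 24 of the 44 genes had tested probe sets of both signs between mandible and ulna. In 9 genes all were negative and in 11 all were positive.

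Side by side, 47 genes were lower in calvaria than in ulna and also higher in mandible than in calvaria. The 2 comparisons share the calvaria arrays. Of these 47, 32 did not pass between mandible and ulna, 5 were higher in mandible and 10 were lower. Both calvaria arrays lay below all 4 others in 60 of 85 genes (70.6%), and in 9.73% of all tested probe sets. After each gene was centred on its mean over the 6 arrays, the median over the 85 genes was 0.19 and 0.12 on the mandible arrays, -0.29 and -0.27 on the calvaria arrays, and 0.10 and 0.16 on the ulna arrays. Thus the mandible and ulna arrays overlapped and the calvaria arrays stood below both. Where a gene had several tested probe sets, all of them were negative between calvaria and ulna for 30 of 44 genes and positive for 3, and all were positive between mandible and calvaria for 34 of 44.

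**Figure D3:**
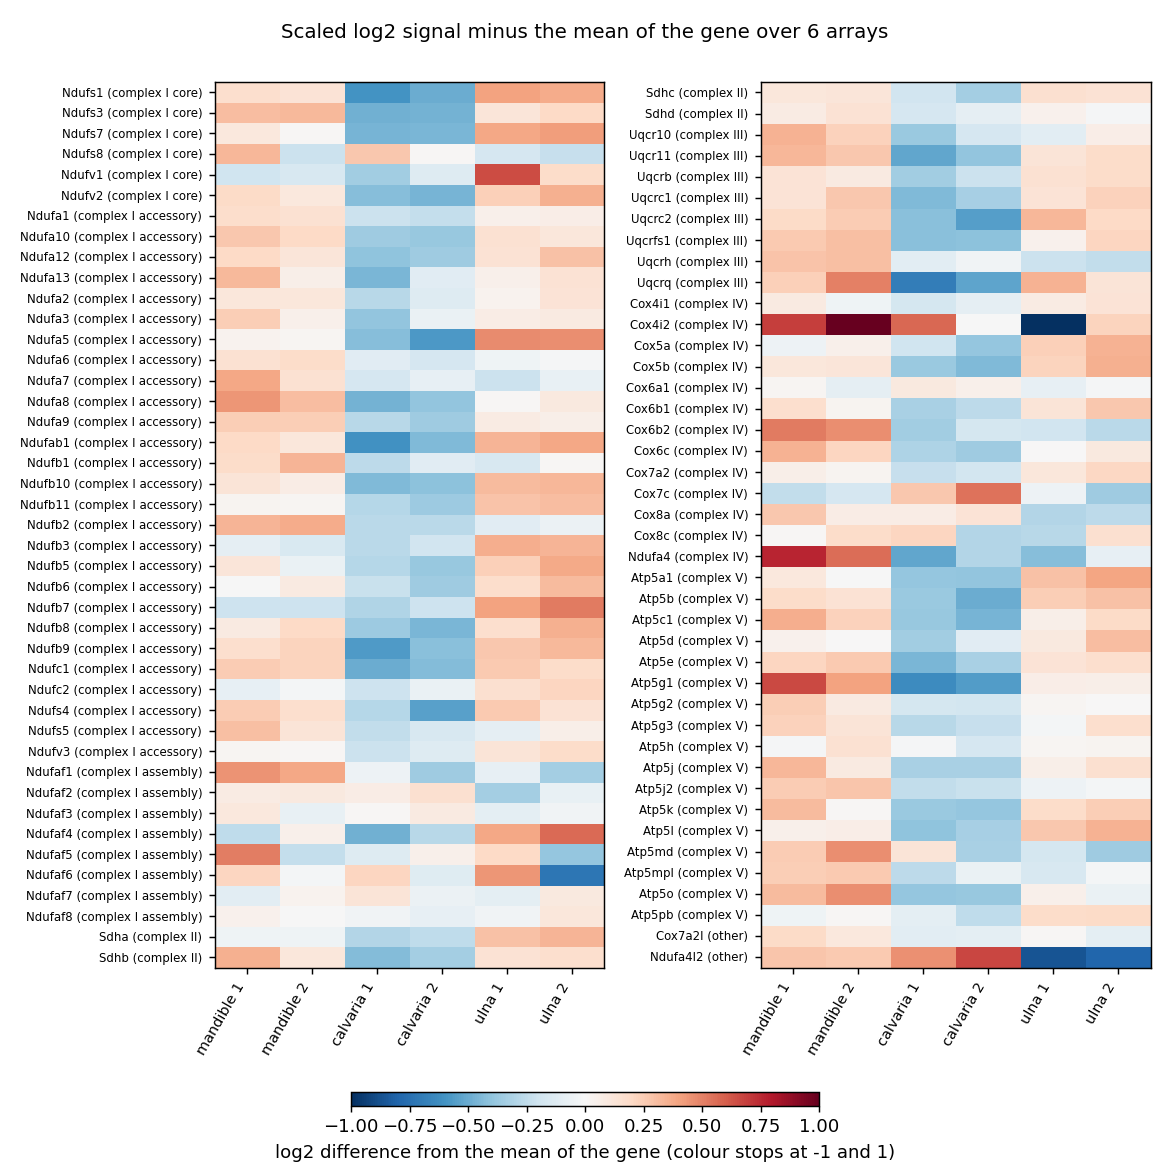
Log2 signal of the 85 members on each of the 6 arrays, after each array was divided by its median and each gene centred on its mean, with mandible, calvaria and ulna from left to right and genes ordered by role. Blue is below and red above the mean of the gene, and both calvaria arrays are the lowest in 60 of 85 genes.

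Other genes of mitochondrial metabolism were counted in the same fit. Of all tested probe sets, 16.6% were lower and 13% higher in calvaria than ulna. Between mandible and calvaria, 8.38% were higher and 13.5% lower. Enzymes of the tricarboxylic acid cycle, which feeds electrons to complexes I and II, were lower in calvaria than ulna in 15 of 17 genes (median -0.72) and higher in mandible than calvaria in 12 of 17 (median 0.50). Citrate synthase, Cs, gave 833.8 and 914.8 in calvaria, against 1567 and 1512 in ulna (-0.89, adjusted p of 7.68e-06 in limma). Ogdh, of the oxoglutarate dehydrogenase complex, was called (-1.03, adjusted p of 0.000165). Of 11 carriers and electron shuttles, 9 were lower in calvaria than ulna (median -0.41). Between mandible and calvaria, 3 of them were higher and 1 was lower (median 0.20). Slc25a4, the ADP/ATP carrier of heart and muscle, gave 1705 and 1571 in calvaria, against 4489 and 4628 in ulna (-1.55, adjusted p of 1.83e-08). Its paralogue Slc25a5 went the other way, with 2421 and 2545 in calvaria against 1768 and 1871 in ulna (0.37, adjusted p of 0.0034).

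Proteins of the mitochondrial ribosome, which translates the subunits encoded in mitochondrial DNA, had 10 of 76 genes lower in calvaria than ulna, where 16.6% of all tested probe sets were lower, and 2 higher (median -0.06). In mandible, 13 of 76 were higher than in calvaria, where 8.38% of all tested probe sets were higher, and 1 was lower (median 0.12). Other assembly factors of the complexes had 4 of 34 lower and 1 higher between calvaria and ulna (median -0.07), where 16.6% and 13% of all tested probe sets were. Between mandible and calvaria, 3 of these factors were higher and 1 was lower (median 0.16). Of 12 regulators of these genes, 4 were lower in calvaria than ulna (median -0.29), against 16.6% of all tested probe sets. Between mandible and calvaria, 0 regulators were higher and 1 was lower (median 0.009). Esrra, a nuclear receptor that acts with PGC-1 coactivators, gave 97.59 and 92.47 in calvaria, against 160.1 and 133 in ulna (-0.70, adjusted p of 0.0157 in limma). Ppargc1a, the coactivator PGC-1alpha itself, was dim, at 37.06 and 38.7 in calvaria against 39.47 and 32.41 in ulna, where the arrays overlapped. Between mandible and calvaria, 9 of 15 glycolysis genes were higher and 1 was lower (median 0.37). Glycolysis had 10 of 15 genes lower in calvaria than ulna and 2 higher (median -0.73), against 16.6% and 13% of all tested probe sets. The enzymes of muscle led it, with Pgam2 at -3.19, Pfkm at -3.04 and Eno3 at -2.90, whereas Aldoc, the aldolase of brain, was higher, with 383.4 and 370.8 in calvaria against 28.93 and 51.61 in ulna (3.21, adjusted p of 6.69e-06).

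**Figure D4:**
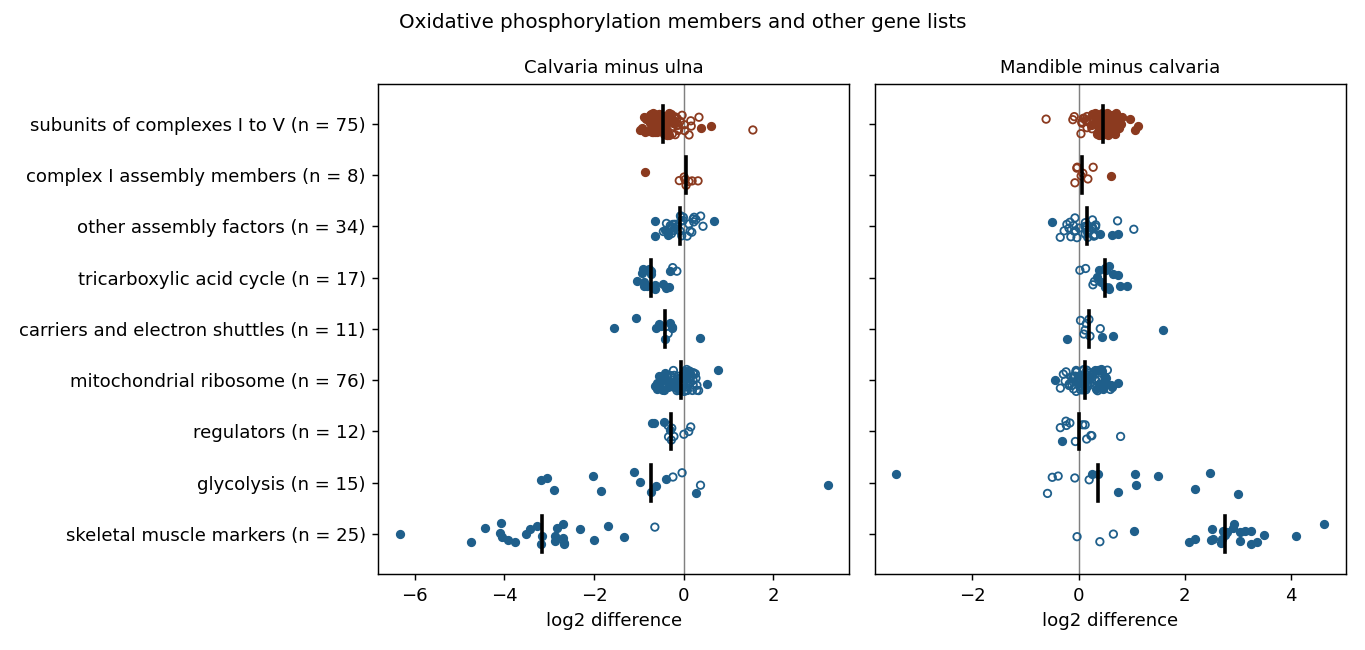
Log2 difference of each gene in the member subunits, the complex I assembly factors, other lists of mitochondrial and energy metabolism, and skeletal muscle markers, between calvaria and ulna (left) and mandible and calvaria (right). Filled points passed at an adjusted p under 0.05 in limma and bars are medians, which between calvaria and ulna were -0.45 for the 75 subunits, -0.72 for the tricarboxylic acid cycle, -0.06 for the mitochondrial ribosome and -3.16 for muscle markers.

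Markers of other cell types moved between the sites as well. Of all tested probe sets, 13% were higher and 16.6% lower in calvaria than ulna, and 16.8% higher and 26.6% lower in mandible than ulna. Osteoblast markers were higher in calvaria than ulna in 9 of 9 genes (median 2.11) and higher in mandible than ulna in 9 of 9 (median 2.20), with a summed signal of 34490 to 35330 in mandible, 35030 to 39360 in calvaria and 6828 to 7059 in ulna. Osteoclast markers summed to 6480 to 6753 in mandible, 12060 to 12340 in calvaria and 3144 to 3699 in ulna. Of 9, 6 were higher and 0 lower in calvaria than ulna. Between mandible and ulna they were split, with 4 higher and 3 lower (log2 differences of -0.77 to 2.13). Erythroid markers were lower in calvaria than ulna in 9 of 9 genes and lower in mandible than ulna in 9 of 9. They summed to 5423 to 5816 in mandible, 7993 to 8495 in calvaria and 13580 to 13990 in ulna. Neutrophil markers were lower in calvaria than ulna in 8 of 10 genes and summed to 57200 to 57460 in mandible, 69780 to 74760 in calvaria and 83300 to 84370 in ulna. All 3 tested adipocyte markers were lower in calvaria than ulna, with sums of 1808 to 1823 in mandible, 2305 to 2323 in calvaria and 5682 to 5936 in ulna. Of 5 brown fat markers 2 were tested, and Ucp1, Cidea and Elovl3 were not. Tooth markers summed to 64530 to 64720 in mandible, 55.26 to 92.4 in calvaria and 89.03 to 104.9 in ulna. No marker of these lists was listed at 0. Muscle was the list whose sums were low in calvaria and high in both mandible and ulna. The part of any of these cell types in the member differences was not tested.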

How the data were processed

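The authors prepared labelled RNA in 1 cycle, hybridised it to Affymetrix mouse expression arrays and computed MAS5 signals, so the deposited values are intensity on a linear scale, with 1 value for each of 45101 probe sets and a 2% trimmed mean close to 100 (99.97) on each array. The version of MAS5 is not given in the sources used here. Array images and the rat data were not analysed here.

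Members were named from the array annotation (34945 probe sets with 1 symbol, 932 with several, 9160 with none). For the other gene lists, symbols were updated by Entrez ID to those of the assembly GRCm38.p6. The 64 control probe sets were dropped. Signals were scaled to the median of their array and turned to log2 without an offset. A probe set was tested if 2 or more of the 6 arrays gave it a signal over the median, which held for 25233 (55.9%). The linear model in limma 3.58.1 (R 4.3.3) had 1 coefficient per site and a variance trend, and p-values were adjusted by Benjamini and Hochberg over all tested probe sets. Each gene was represented by its tested probe set with the highest mean. The fit was tested on simulated data. The number of arrays limits the precision.

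Named were the muscle isoforms and partners, both reference genes, called members, the 2 largest changes in each direction per role among genes that passed without overlap of arrays, members whose probe sets passed in opposite directions, members not tested, and up to 4 called genes of each other list. Genes named outside this rule to show a contrast (such as Ndufs8, Cox4i1, Cox4i2, Atp5g2, Slc25a5, Cs, Esrra, Ppargc1a, Acta1) were chosen after their values were seen. The members and lists were chosen with earlier results of these data known. Alternatives were other scalings, filters, an offset, no trend, fewer arrays, a replicate block, other probe sets, and each array left out. Promoters came from RefSeq, and matplotlib 3.10.9 (Python 3.11.15) drew the figures.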

Additional observations from a re-analysis of the deposited data

How the results depend on the processing

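Median differences kept their sign under every alternative run except 1, the mandible to ulna median without mandible replicate 1. Leaving out each array in turn, the members lower in calvaria than ulna numbered 49 to 56, those higher 2 to 3, and the median was -0.44 to -0.39. Between mandible and calvaria, 48 to 59 were higher, 0 to 1 lower, and the median was 0.39 to 0.48. Between mandible and ulna, 12 to 19 were higher, 7 to 15 lower, and the median was -0.0036 to 0.067. Replicates of the same number showed no shared deviation between sites (correlations of deviations of -0.0048, 0.0059 and -0.012). This cannot show whether they came from the same mice, which the labels do not say. With a replicate block, 3 members were higher and 56 lower in calvaria than ulna. In the same fit, 17 were higher and 15 lower in mandible than ulna, and 59 higher in mandible than calvaria.

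Scaling moved the split. Between calvaria and ulna, 5 were higher with the values as deposited (median -0.31), 6 with quantile normalization (-0.29) and 5 with scaling to the 75th percentile (-0.33). Between mandible and ulna, the values as deposited gave 31 higher and 7 lower (median 0.18), quantile normalization 31 and 8 (0.16), and the 75th percentile 29 and 8 (0.17). Of all tested probe sets, 19.6% to 20.2% were higher and 21.6% to 22.1% lower under these scalings. Between mandible and calvaria the medians were 0.46 as deposited and 0.47 at the 75th percentile. Set against the median of all tested probe sets, the members' medians were -0.31, 0.20 and 0.52 for calvaria minus ulna, mandible minus ulna and mandible minus calvaria, also as deposited and at the 75th percentile, and -0.26, 0.21 and 0.49 with quantile normalization. Without the trend, 1 was higher and 33 lower in calvaria than ulna, and 26 were higher in mandible than calvaria. Between mandible and ulna, 7 were then higher (8.24%), against 14.5% of all tested probe sets, and 3 lower (3.53%), against 22%. A filter at the 75th percentile gave a calvaria to ulna median of -0.44. Of 79 members, 58 were then lower (73.4%), against 29.2% of all tested probe sets, and 2 higher (2.53%), against 19.3%. Between mandible and calvaria, 62 were higher (78.5%), against 14.2%, and 0 lower, against 24.5%. Between mandible and ulna, 18 were higher and 18 lower (22.8% each), against 23.4% and 40.2%. An offset of 0.25, and a fit of only the 4 arrays compared, each gave 1 member lower in mandible than calvaria. By the lowest-mean probe set, 37 were lower in calvaria than ulna (median -0.20), and 8 were lower in mandible than ulna (median 0.11). Leaving out members under 4 times the array median, an alternative chosen after seeing the data, gave 1 higher in calvaria than ulna and a median of -0.44.

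Of 1233 values of named genes under alternatives, 1138 kept direction and side of the threshold, 77 no longer passed, 10 passed newly and 8 changed sign. Between calvaria and ulna, Ndufab1 was at 0.17 without _x_at and _s_at probe sets, and by the lowest-mean probe set Cox5b was at 0.15 and Sdha at 0.032. By the lowest-mean probe set between mandible and ulna, Ndufaf4 was at 0.065, Ndufb11 at 0.61, Ndufb2 at -0.70, Ndufs7 at 0.058 and Sdha at 0.22. The cause was not tested. Dim probe sets had larger errors, and signal over background was not used here.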

Other observations

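Probe sets that name a family gene together with another symbol were left out of the members, and 7 of them were tested. The brighter of a pair of probe sets annotated to Ndufb4, Ndufb4b and Ndufb4c gave 1423 and 1325 in mandible, 812.5 and 852.4 in calvaria, and 1088 and 1215 in ulna, with log2 differences of -0.54 between calvaria and ulna (adjusted p of 0.000577 in limma) and 0.68 between mandible and calvaria (adjusted p of 0.000172). The probe set annotated to Ndufa11 and Ndufa11b gave 781.7 and 681.7 in mandible, 433.4 and 468.3 in calvaria, and 622.9 and 639.9 in ulna, with -0.56 between calvaria and ulna (adjusted p of 0.00107). The probe set annotated to Ndufs6 and Ndufs6b gave 949.1 and 888.1 in mandible, 594.5 and 664.7 in calvaria, and 719.7 and 768.3 in ulna, with -0.32 between calvaria and ulna (adjusted p of 0.0199). In these 3 probe sets both calvaria arrays were the lowest. They cannot be given to 1 gene.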
